A study of Homo sapiens with 6 samples.

Results

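The 10 genes described here write, read out and erase DNA methylation or supply the metabolite that the erasers need. They are DNMT1, UHRF1, DNMT3A, DNMT3B, TET1, TET2, TET3, WT1, IDH1 and IDH2, and each was taken as the row of the expression table whose Ensembl identifier maps to that symbol, 10 of 29810 genes in all. Expression was measured by mRNA-seq in Kasumi-1 cells, a human line of acute myeloid leukemia with the RUNX1-RUNX1T1 fusion. There were 3 control libraries and 3 libraries from cells incubated for 48 h with 0.25 μM I3, an inhibitor of histone deacetylases. The methods describe the control as the solvent of I3, dimethyl sulfoxide, and both groups stem from the same single cell line. The methods say in general that every experiment was repeated 3 times, without naming the libraries. Nothing in the labels says that the libraries of a group came from separate cultures. The p-values below therefore measure the spread between these libraries, which may be technical. A figure legend of the study gives a longer incubation than its methods and the labels, and the name of the deposited table gives the compound another number than the labels do.

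DNA methylation is copied after each round of replication by DNMT1, which UHRF1 brings to hemimethylated sites. New methyl groups are set by DNMT3A and DNMT3B. The TET enzymes oxidize methylcytosine with 2-oxoglutarate as a cosubstrate, IDH1 and IDH2 make 2-oxoglutarate from isocitrate, and the transcription factor WT1 binds TET2 and TET3 and brings TET2 to target genes. DNMT3A, TET2, IDH1, IDH2 and WT1 are recurrently mutated in acute myeloid leukemia, and mutant IDH proteins make 2-hydroxyglutarate, which inhibits TET enzymes.

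In limma with the thresholds of the study's methods, 0 of the 10 genes and 0 of the 12960 tested genes were called after I3. The study, with a count model, reported genes changed in both directions, and the fit used here recovers none of them. The order of expression of the 10 genes was the same in both groups but for DNMT3B and TET2, which changed places. The values are FPKM, fragments scaled to the length of the gene and the depth of the library. The length that gives back whole reads is that of all annotated exons of a gene merged. Levels and shares set side by side between genes therefore also depend on the annotation. For example, TET2 has 16474 nt of exon from 9 annotated transcripts and TET1 9288 nt from 1. In RNA from a bulk culture, fewer cells that express a gene and less RNA per cell cannot be told apart. The depth behind them was 17500320 to 18193373 reads per library, and each gene had between 291 reads (DNMT3B in I3 3) and 8758 reads (IDH2 in control 2) in a library. All 8 marker genes of myeloid blasts that were looked up, RUNX1T1, KIT and MPO among them, had at least 0.5 FPKM. Of the markers of other cell types, 0 of 3 T cell, 0 of 3 erythroid and 0 of 1 fibroblast genes in the table did, while the B cell genes CD79A and PAX5, the monocyte gene CSF1R and the epithelial gene EPCAM did.

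The highest level was that of IDH2, with 165 ± 10.5 FPKM (SD, n = 3) in control cells, rank 179 among the 12960 tested genes. DNMT1 followed with 45.3 ± 2.54 FPKM and UHRF1 with 31.7 ± 4.28 FPKM. TET3, with 14.2 ± 0.371 FPKM, and TET1, with 13.4 ± 0.850 FPKM, came next, ahead of DNMT3A with 10.8 ± 0.499 FPKM and IDH1 with 10.7 ± 1.28 FPKM. WT1 had 6.74 ± 0.728 FPKM, DNMT3B 3.92 ± 0.317 FPKM and TET2 3.74 ± 0.214 FPKM. The control ranges of neighbours in this order did not overlap, except for TET3 and TET1, for DNMT3A and IDH1, and for DNMT3B and TET2, which did not differ beyond their spread. The same 3 pairs overlapped after I3. By their mean over all 6 libraries, DNMT3B and TET2, the lowest of the 10, were at the 42.0 and 42.9 percentile of the tested genes.

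**Figure D1:**
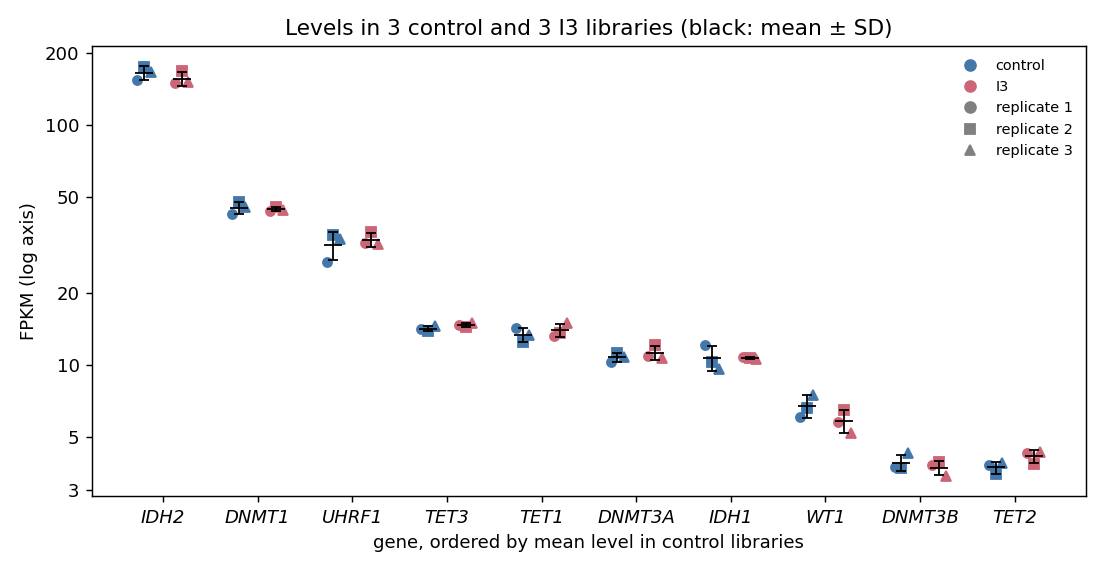
FPKM on a log axis for each gene, with 1 point per library (blue, control; red, I3; shape, replicate number) and the mean ± SD of 3 libraries in black. The genes span 3.45 FPKM (DNMT3B in I3 3) to 175 FPKM (IDH2 in control 2), and the control and I3 points of each gene overlap.

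The start regions of the maintenance pair are shown because DNMT1 and UHRF1 act together in S phase, and because a match to an E2F-type motif was found in their listed windows and in those of no other member, the kind of site found at many genes of DNA replication. The sequences run from 120 bases before to 10 bases after the annotated start, are given 5′ to 3′ on the strand of the gene, and come from RefSeq on GRCh38.p14. Capitals mark the match to TTTCCCGC, TTTCGCGC, TTTGCCGC or TTTGGCGC, searched on both strands.
DNMT1, chr19:10194944-10195073, minus strand: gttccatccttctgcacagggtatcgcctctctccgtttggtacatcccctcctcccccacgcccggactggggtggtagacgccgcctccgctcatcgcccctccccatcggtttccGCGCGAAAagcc
UHRF1, chr19:4909381-4909510, plus strand: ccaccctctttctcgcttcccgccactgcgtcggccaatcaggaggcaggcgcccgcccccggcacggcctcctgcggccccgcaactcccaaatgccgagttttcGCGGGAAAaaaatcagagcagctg

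In DNMT1 the 8 bases of the match begin 2 bases before the start and run across it, and in UHRF1 they begin 14 bases before it. Another of the 3 listed UHRF1 starts has a match that begins 160 bases upstream. Among all 35116 RefSeq windows of 300 bases (250 before and 50 after a start), 3.31% held such a match, against 3 of the 25 windows of the 10 genes. The GC box GGGCGG, on either strand, was in 14 of the 25 windows and 45.0% of all windows, and CCAAT in 7 and 34.6%. A match is only a run of letters and was not tested as a binding site. The windows of the 10 genes had a median of 20 CpG dinucleotides, the bases that these enzymes modify, against 14 over all windows. Of all windows, 41.2% had at least 20, and genes with several listed starts count more than once. The windows do not cover every start. All windows listed for DNMT1, UHRF1, DNMT3B, IDH1 and IDH2 lie inside these genes as annotated here. Starts of theirs further upstream were therefore not searched, and the DNMT1 and UHRF1 sequences shown belong to internal starts. The CpG count ranged from 3 in that internal DNMT3B window to 46 in one of the UHRF1 and one of the DNMT3A windows.

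DNMT1 (ENSG00000130816, chromosome 19 from 10133345 to 10231286), the maintenance methyltransferase, had nearly the same level in both groups. It had 42.7, 47.8 and 45.5 FPKM in control 1, 2 and 3 and 44.0, 45.5 and 44.4 FPKM in I3 1, 2 and 3. All I3 values lay between the lowest and the highest control value. On the log2(FPKM + 0.5) scale, which is used for all differences here, I3 minus control was -0.020 (standard error 0.0572, 95% interval -0.15 to 0.11, adjusted p = 0.998 by limma). DNMT1 shares 83 nt of exon, 0.847% of its exon length, with S1PR2 on the same strand.

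UHRF1 (ENSG00000276043, chromosome 19 from 4903080 to 4962154) reads hemimethylated DNA and recruits DNMT1. It had 26.8, 34.7 and 33.5 FPKM in the control libraries and 32.1, 36.0 and 31.8 FPKM after I3. Control 1 stood below the other 5 libraries, and the groups overlapped. The log2 difference was 0.079 (standard error 0.106, 95% interval -0.17 to 0.33), and without control 1 it was -0.036. In both genes of the pair control 1 was the lowest library. The ratio of DNMT1 to UHRF1 was 1.59 in control 1 and between 1.26 and 1.40 in the other libraries.

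The de novo enzymes differed in level from each other but not detectably between the groups. DNMT3A (ENSG00000119772, chromosome 2 from 25227855 to 25342590) had 10.3, 11.3 and 10.8 FPKM in control libraries and 10.9, 12.1 and 10.7 FPKM after I3. Only I3 2 exceeded all controls, and the log2 difference was 0.058 (95% interval -0.11 to 0.22). DNMT3B (ENSG00000088305, chromosome 20 from 32762385 to 32809356) had 3.74, 3.73 and 4.28 FPKM in control libraries and 3.82, 3.93 and 3.45 FPKM after I3. Its highest value was in control 3 and its lowest in I3 3, with a log2 difference of -0.060 (95% interval -0.27 to 0.15). DNMT3B rested on the fewest reads of the 10 genes, 960 in the control libraries and 930 after I3. Of the summed FPKM of the methyltransferases, DNMT1 made up 75.5% ± 0.542 in control and 74.9% ± 0.909 in I3 libraries (SD, n = 3 each), DNMT3A 17.9% ± 0.132 and 18.8% ± 0.697, and DNMT3B 6.54% ± 0.568 and 6.26% ± 0.324. DNMT3L, the inactive cofactor of the de novo enzymes, was listed at 0 in all 6 libraries.

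Among the TET dioxygenases, TET1 and TET3 were expressed at similar levels and TET2 at a lower one. TET1 (ENSG00000138336, chromosome 10 from 68560656 to 68694482) had 14.2, 12.5 and 13.3 FPKM in control libraries and 13.2, 13.6 and 15.0 FPKM after I3. I3 3 was the highest library and the other values were mixed, with a log2 difference of 0.060 (95% interval -0.11 to 0.24). TET3 (ENSG00000187605, chromosome 2 from 73986404 to 74108176) varied least of the 10 genes and had 14.1, 13.8 and 14.6 FPKM against 14.7, 14.5 and 14.9 FPKM. I3 2 lay just below control 3, so the groups overlapped, and the log2 difference was 0.050 (95% interval -0.075 to 0.18).

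TET2 (ENSG00000168769, chromosome 4 from 105145875 to 105279816), a frequent target of mutation in myeloid leukemia, had the most positive difference of the 10 genes in the main comparison, although UHRF1 exceeded it after GC removal (0.10 against 0.097), with the sign of the GC correlation as a term (0.16 against 0.11) and without control 2 (0.15 against 0.096). It had 3.82, 3.50 and 3.91 FPKM in control libraries and 4.30, 3.87 and 4.33 FPKM after I3. I3 1 and I3 3 lay above all controls, while I3 2 lay between control 1 and control 3. The log2 difference was 0.14 (standard error 0.0807, 95% interval -0.052 to 0.33, unadjusted p = 0.131 and adjusted p = 0.998 by limma), and the two-sided exact permutation p was 0.2, where 3 against 3 libraries cannot go below 0.1. With each library rescaled to TPM the groups of TET2 and of TET3 no longer overlapped, although the log2 differences were only 0.16 and 0.062. Before rescaling, groups were separate for 9.7% of all tested genes, and the share with TPM is not given here. Of the summed TET level, TET2 made up 12.0% ± 0.290 in control and 12.7% ± 0.619 in I3 libraries (SD, n = 3 each), TET1 42.7% ± 1.30 and 42.5% ± 1.39, and TET3 45.3% ± 1.25 and 44.8% ± 1.11.

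WT1 (ENSG00000184937, chromosome 11 from 32387775 to 32435630), a zinc finger factor used as a marker of leukemic blasts, had the most negative difference. It had 6.07, 6.64 and 7.52 FPKM in control libraries and 5.80, 6.49 and 5.21 FPKM after I3. I3 1 and I3 3 lay below all controls, while I3 2 lay above control 1. The log2 difference was -0.19 (standard error 0.105, 95% interval -0.44 to 0.054, unadjusted p = 0.107 and adjusted p = 0.998 by limma), and the two-sided exact permutation p was 0.2. Without control 3, and also without I3 3, it was -0.12. WT1 shares 113 nt of exon, 2.75% of its exon length, with WT1-AS on the opposite strand, while the strand setting of the counting was not given in the sources used here. WT1-AS had 0.472 FPKM in control cells and 0.482 FPKM after I3 on average.

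IDH1 acts in the cytosol and peroxisomes and IDH2 in mitochondria. IDH1 (ENSG00000138413, chromosome 2 from 208236227 to 208266074) had 12.1, 10.3 and 9.65 FPKM in control libraries and 10.8, 10.7 and 10.6 FPKM after I3. The I3 values lay within the control range, and the log2 difference of 0.0087 (95% interval -0.20 to 0.21) was smaller than the spread between libraries. Its sign was negative without control 2 (-0.014), without control 3 (-0.058), with median-of-ratios scaling (-0.0040) and with quantile normalization (-0.00058). IDH1-AS1, which shares 94 nt of exon with it on the opposite strand, had 0.0858 and 0.256 FPKM on average in control and I3 libraries. Both means are below the minimum of 0.5 FPKM, so IDH1-AS1 was not tested.

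IDH2 (ENSG00000182054, chromosome 15 from 90083045 to 90102504) had 154, 175 and 167 FPKM in control libraries and 149, 167 and 150.9 FPKM after I3. I3 1 and I3 3 lay below all controls, and I3 2 lay between control 3 and control 2. The log2 difference was -0.082 (95% interval -0.25 to 0.080). The ratio of IDH2 to IDH1 was 15.7 ± 2.56 in control and 14.6 ± 0.956 in I3 libraries (SD, n = 3 each).

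Set side by side, 0 of the 10 genes passed an adjusted p of 0.05 with a log2 fold change of 0.58 by limma, as did 0% of the 12960 tested genes. At an unadjusted p under 0.05, limma called 0 of the 10 genes higher and 0 lower, against 2.08% higher and 2.85% lower among all tested genes, 4.93% in all, and voom on reads rebuilt from FPKM also called 0 of the 10. Control and I3 values were fully separate for 0 of the 10 genes, against 9.7% of all tested genes, of which 5.06% were higher and 4.64% lower after I3. Of the 10 differences, 6 were positive and 4 negative, with a median of 0.030 against 0.011 over all tested genes. All 10 of the 95% intervals lay within a log2 fold change of 0.58 in either direction, which held for 81.6% of the tested genes. The interval nearest to that limit was that of WT1, which ended at -0.44. Smaller changes may lie below what 3 libraries a group can show.

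**Figure D2:**
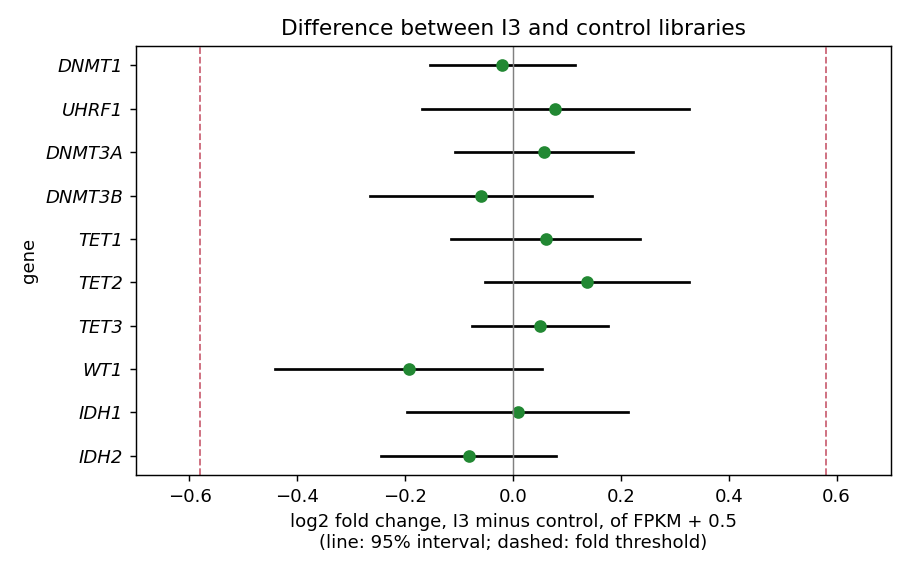
Log2 difference between I3 and control libraries for each gene (point) with its 95% interval from limma (line), and the fold threshold of 0.58 in either direction (dashed). All intervals include 0 and lie inside the dashed lines, with the points between -0.19 (WT1) and 0.14 (TET2).

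The libraries differed from each other in a way that cut across the groups. Over 12939 tested genes, the rank correlation of transcript GC content with a library's deviation from the mean of each gene was negative in control 1, I3 1 and I3 3 (-0.446 to -0.232) and positive in control 2, control 3 and I3 2 (0.262 to 0.446). The transcripts of TET1, TET2 and IDH1 have a median GC content of 41.0%, 43.0% and 43.1%, and those of the other 7 genes 53.2% to 58.1%. All 3 GC-poor genes had a higher mean in the libraries of negative correlation, and 6 of the 7 GC-rich genes, all but TET3, had a higher mean in the libraries of positive correlation. IDH2 had a mean of 151 FPKM in the former and 170 FPKM in the latter, and WT1 had 5.69 and 6.88 FPKM. Libraries were classed by the correlation over all these tested genes, so such directions are partly built in. The share of all genes that follow them is not given here. The ratio of IDH2 to IDH1 was 12.7, 13.8 and 14.2 in control 1, I3 1 and I3 3, below the 17.0, 17.3 and 15.7 in control 2, control 3 and I3 2.

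**Figure D3:**
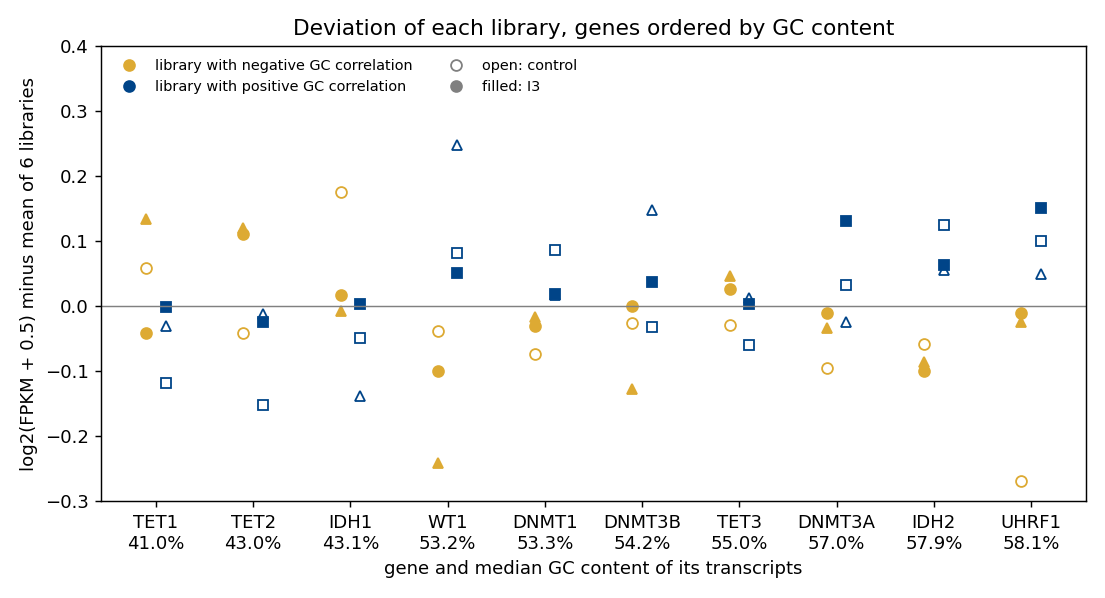
Deviation of each library from the mean of the 6 libraries on the log2(FPKM + 0.5) scale, with genes ordered by the median GC content of their transcripts (open, control; filled, I3; circle, square and triangle, replicate 1, 2 and 3; yellow, libraries with a negative GC correlation; blue, with a positive one). Yellow points are on average above blue ones for TET1, TET2 and IDH1 and below them for DNMT1, UHRF1, DNMT3A, DNMT3B, WT1 and IDH2.

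Since I3 holds more libraries of negative correlation than control, the differences were also taken within each kind of library. For WT1 they were -0.13 among the libraries of negative and -0.11 among those of positive correlation, against -0.19 over all. For TET2 they were 0.16 and 0.057, and for UHRF1 0.25 and 0.076. The differences of DNMT1, TET1 and IDH1 had opposite signs in the 2 kinds of library. Within a kind, 1 group has a single library, so these values carry no error. After removal of the GC trend from each library, the SD over the 6 libraries was smaller for 9 of the 10 genes (median 0.0677 against 0.0920 on the log2 scale) and larger for TET3, 0.0642 against 0.0384. The trend was fitted to these same libraries, so a smaller SD is partly built in. The share of all genes with a smaller SD is not given here. With the trend removed TET2 differed by 0.097, WT1 by -0.19, TET1 by 0.0070 and IDH1 by -0.032, and the groups of DNMT3A no longer overlapped, at a difference of 0.078. Before GC removal, groups were separate for 9.7% of all tested genes, and the share after it is not given here.

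The spread between libraries was set beside the counting error of the reads, rebuilt from FPKM. Within the control group the chi-square per degree of freedom was between 2.09 (DNMT3B) and 52.7 (UHRF1), where counting error alone gives 1 on average. With only 3 libraries, values as low as those of DNMT3B and TET3 (2.10) can also come from counting error. In the I3 group the chi-square per degree of freedom was 0.079 for IDH1, 0.759 for TET3 and 1.39 for DNMT3B. It was between 2.44 (DNMT1) and 32.2 (IDH2) for the other 7 genes. The depth-corrected ratio of I3 to control reads was 1.11 for TET2 (3266 control and 3697 I3 reads), with an exact 95% binomial interval of 1.06 to 1.17. For WT1 it was 0.865 (0.802 to 0.933, from 1468 control and 1290 I3 reads). The interval left out 1 for 7 of the 10 genes, also for UHRF1, DNMT3A, TET1, TET3 and IDH2. These intervals cover counting error only and not the spread between libraries. The share of all tested genes with such an interval is not given here, so the count of 7 cannot be read as a result about the members.

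Genes that act with the 10 members were grouped in 7 lists, and none of their tested genes passed the adjusted threshold in limma, like all other tested genes. Groups were separate for 9.7% of all tested genes, which is the share to set beside the list genes with separate groups below. Most genes are named for a small unadjusted p within their list, which favors separate groups by choice. At an unadjusted p under 0.05 limma called 4.93% of all tested genes, which is the share to set beside the list counts below. Of the maintenance partners, among them PCNA, CDCA7 and HELLS, 0 of 8 genes were at an unadjusted p under 0.05, which is near that share. Their median log2 difference was 0.020. PCNA, the sliding clamp to which DNMT1 binds, averaged 162 ± 2.53 FPKM without and 164 ± 3.66 FPKM with I3 (SD, n = 3 each). CDCA7L and CDCA7, zinc finger proteins of which CDCA7 activates the remodeler HELLS, had log2 differences of 0.085 and 0.052, and HELLS had 0.064.

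Of the 5 tested de novo partners and the 10 genes of the methyl donor cycle, 0 were at an unadjusted p under 0.05, against 4.93% of all tested genes. MTR, the methionine synthase, came closest, with a log2 difference of 0.13 (95% interval -0.0016 to 0.26) and with all I3 values above all controls. Groups were also separate for ZNF445, a zinc finger protein of imprinted regions (0.14), and MAT2B, the regulatory subunit of the MAT2A enzyme (0.10), while 95% intervals of both included 0. Among all tested genes 9.7% had separate groups. MAT2A, which makes S-adenosylmethionine, had 74.9 ± 3.81 FPKM in control cells and 81.1 ± 4.32 FPKM after I3. SHMT1, the cytosolic serine hydroxymethyltransferase, had the opposite sign, with a log2 difference of -0.14 (95% interval -0.38 to 0.11). TRIM28, a corepressor, was the most expressed of the de novo partners named here, with 187 ± 14.2 and 172 ± 11.0 FPKM, a log2 difference of -0.12 (95% interval -0.29 to 0.056). NSD1, a histone H3 methyltransferase, had 0.037, and QSER1, which protects bivalent promoters from methylation, had 0.094.

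Among the 7 tested methyl-CpG readers, MBD2, which links methylated DNA to the NuRD deacetylase complex, had an unadjusted p of 0.0121 in limma (adjusted p = 0.822). It had 9.27, 9.01 and 8.95 FPKM in control libraries and 8.27, 7.36 and 7.56 FPKM after I3. All I3 values lay below all controls, and the log2 difference was -0.22 (95% interval -0.38 to -0.064). The other subunit of NuRD on this list, MBD3, had -0.12 (95% interval -0.32 to 0.076), the glycosylase MBD4 had -0.096 and ZBTB33 had 0.13. Of the 10 tested genes of active demethylation and base excision repair, OGT, a glycosyltransferase that binds TET proteins, had a log2 difference of 0.15 (unadjusted p = 0.0449 and adjusted p = 0.998 in limma), and CXXC5, a CXXC-domain protein, had -0.24 (unadjusted p = 0.0479 and adjusted p = 0.998 in limma). The groups did not overlap for either gene. NEIL2, a glycosylase, had -0.14 (95% interval -0.36 to 0.068) and GADD45A had -0.071. GADD45G and CXXC4 were listed at 0 in all libraries. TDG, the glycosylase that removes the oxidized bases, had a log2 difference of 0.073 (95% interval -0.12 to 0.26).

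Of the 17 genes of 2-oxoglutarate and 2-hydroxyglutarate metabolism, IDH3A, the catalytic subunit of the NAD-dependent isocitrate dehydrogenase, had 4.42, 4.70 and 4.54 FPKM in control libraries and 5.11, 5.62 and 5.23 FPKM after I3. The groups did not overlap, with a log2 difference of 0.20 (95% interval 0.039 to 0.37, unadjusted p = 0.0217 and adjusted p = 0.932 in limma). ACO1, the cytosolic aconitase, had a log2 difference of 0.092 (95% interval -0.073 to 0.26), and DLD, a subunit of the 2-oxoglutarate dehydrogenase complex, had -0.060 (95% interval -0.20 to 0.082). After removal of the GC trend 0 genes of this list were higher at an unadjusted p under 0.05 in limma.

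Of 16 S phase genes, CDT1, which licenses replication origins, averaged 51.8 ± 5.90 FPKM without and 42.2 ± 3.35 FPKM with I3 (SD, n = 3 each), a log2 difference of -0.29 (unadjusted p = 0.0186 and adjusted p = 0.868 in limma). Its groups overlapped, since I3 2 with 45.9 FPKM lay above control 1 with 45.3 FPKM. TYMS, the thymidylate synthase, had -0.16, CCNE1, cyclin E1, -0.14 and the helicase subunit MCM4 0.059, and the 95% intervals of these 3 genes included 0. The medians of the 7 lists ranged from -0.0058 for the S phase genes to 0.037 for the de novo partners.

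**Figure D4:**
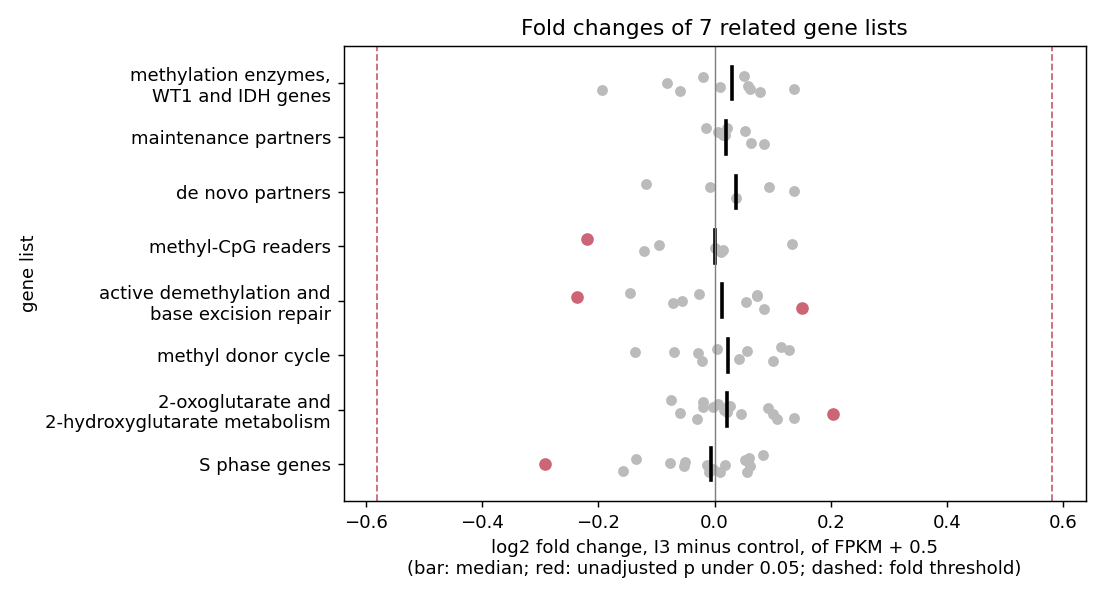
Log2 difference between I3 and control libraries for the 10 genes and for the tested genes of 7 related lists (points), with the median of each list (bar) and genes at an unadjusted p under 0.05 in red. The red points are MBD2, OGT, CXXC5, IDH3A and CDT1, and all points lie inside the dashed fold threshold of 0.58.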

How the data were processed

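Stranded libraries of mRNA were sequenced. For each gene and library, the authors deposited an FPKM value. The submitters' processing notes name Trimmomatic, HISAT2, HTSeq, Cufflinks and hg38; versions and annotation release were not given in the sources used here. GENCODE release 29 (GRCh38) held 29703 of the 29810 identifiers and gave exon lengths, coordinates and GC content. FPKM multiplied by exon length and depth gave whole reads, within 0.1 read in all 6 libraries, for 95.4% of the 26609 genes above 0. No 2 libraries of a group were copies (chi-square per degree of freedom of 4.36 or more).

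The study used a count model. Since the deposited values are FPKM, limma 3.58.1 in R 4.3.3 (eBayes with trend) was fitted to log2(FPKM + 0.5) of the 12960 genes that averaged 0.5 FPKM or more, 3 I3 against 3 control libraries, two-sided, with Benjamini-Hochberg adjustment. On this scale, fold changes of weakly expressed genes are understated. Single genes were also compared by exact permutation tests (scipy 1.17.1). Plots were drawn with matplotlib 3.10.9. The procedure was tested on simulated data. All 10 members had at least 0.5 FPKM and all are reported.

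Named genes are the 10 members, up to 4 genes of each related list by the smallest unadjusted p with genes listed at 0, the closest gene of each member, and genes with overlapping exons. A gene that this rule names is not reported here. TDG, KIT, MPO and RUNX1T1 and the cell markers outside this rule are named as list members. Members, lists and tests were chosen with earlier results of these data known. Promoter sequences came from RefSeq (GRCh38.p14), with 25 windows for the 10 genes, and the motifs were chosen during the work. Alternatives were other pseudocounts, minimums and scalings, no trend, the replicate block, GC correction, a term for the sign of the GC correlation, voom on rebuilt reads, and leaving out each library.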

Additional observations from a re-analysis of the deposited data

How the results depend on the processing

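Over 198 refitted differences of the 10 genes, 187 kept their direction and 0 passed the adjusted threshold, with a smallest adjusted p of 0.451 (limma). Changes of the minimum, the eBayes trend and the replicate block leave a difference unchanged by construction, so the count of 187 overstates the agreement. DNMT1 turned to 0.026 with quantile normalization and 0.0080 with the sign of the GC correlation as a term, and ranged from -0.062 to 0.018 with single libraries left out, turning without control 2. IDH1 turned to -0.032 after GC removal (also with the replicate block), -0.0040 with median-of-ratios scaling, -0.00058 with quantile normalization and -0.036 with the GC term, and ranged from -0.058 to 0.098, turning without control 2 or control 3. UHRF1 ranged from -0.036, without control 1, to 0.15. The causes were not tested.

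At an unadjusted p under 0.05 in limma, 1 member was higher with the GC term (UHRF1, 0.16, adjusted p = 0.706 in limma). With that term, 6.57% of all tested genes were called in either direction. With single libraries left out, 0 to 1 member was lower (WT1 without I3 2, -0.27, or without control 1, -0.26) and 0 was higher, where 5.14% and 11.0% of all tested genes were called in either direction without I3 2 and without control 1. Groups did not overlap for 1 member after GC removal, with or without the block (DNMT3A), for 2 after rescaling to TPM, and for 0 to 4 with single libraries left out, where fewer libraries overlap less often by construction (4 without I3 2). In the main comparison 9.7% of all tested genes had separate groups, and shares under these alternatives are not given here. Without such shares these counts cannot be read as a result about the members.

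List counts at an unadjusted p under 0.05 also moved. With the replicate block, demethylation genes higher became 0, de novo partners lower 1 and methyl donor genes higher 1. With TPM, demethylation genes lower became 0 and methyl donor genes higher 1. With GC removal, 2-oxoglutarate genes higher became 0. Of all tested genes, 6.60% were called in either direction with the block, 4.87% with TPM and 5.90% with GC removal. With single libraries left out, 2-oxoglutarate genes higher ranged from 0 to 2, S phase genes lower from 0 to 2, demethylation genes higher from 0 to 2 and lower from 0 to 1, de novo partners lower from 0 to 1, methyl donor genes higher from 0 to 2, and readers higher from 0 to 1 and lower from 1 to 2. The upper values came without control 1, where the share of all genes also rose, to 11.0%, except demethylation genes lower.

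Same-numbered libraries did not deviate together throughout (r = 0.0634, 0.151 and -0.0239 across genes). These deviations also carry the GC trend of each library, so they cannot settle whether the numbers pair the libraries. I3 1 and I3 2 correlated best with the control of their own number and I3 3 did not. The block left the member counts at 0 and moved the share of all genes at an unadjusted p under 0.05 from 4.93% to 6.60%. DNMT3B and TET2 were below a minimum of 5 FPKM and have no value there.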

Other observations

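For each of the 10 genes, the tested gene with at least 5 FPKM whose levels over the 6 libraries were most like it was looked up. For IDH2 it was SHMT2, the mitochondrial serine hydroxymethyltransferase (Pearson r = 0.992). For TET2 it was ASXL2 (r = 0.999), for UHRF1 TRIM26 (r = 0.995) and for DNMT1 ELK1 (r = 0.994). For the others it was RPL41 (DNMT3A, r = 0.996), LASP1 (DNMT3B, r = 0.981), FARSB (TET1, r = 0.996), CSNK1A1 (TET3, r = 0.986), RPL10P16 (WT1, r = 0.995) and TMEM97 (IDH1, r = 0.995). The values of RPL41 and RPL10P16 are uncertain, since ribosomal protein genes have near-identical copies. These are the highest of 6641 or 6642 values each, over only 6 libraries that also differ in their GC trend. For IDH2, 129 genes had an r above 0.95, and for DNMT1 108, so a single closest gene says little.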
